A study of Homo sapiens with 2 samples.

Results

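Casein kinase 2 (CK2) is a serine-threonine kinase made of a pair of catalytic subunits and a pair of regulatory subunits. The members described here are the 3 genes for catalytic subunits: CSNK2A3, CSNK2A2 and CSNK2A1. They were chosen by symbol in a list of RNA peaks from a catenin immunoprecipitation (IP), where they account for 3 of 1658 gene symbols. For each symbol the transcript holding most tags was used, a tag being a sequenced read assigned to a peak. All 3 had a peak, and together they filled 4 of the 6195 entries of the list, because CSNK2A1 was entered on both of its listed transcripts.

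The 2 samples of the study both come from MDA-MB-231, a triple-negative human breast cancer cell line. One is RNA recovered with the catenin IP (B-catenin in its title) and the other is an input. No treatment or genotype is named for either. Each is a single library, so no value below has a replicate error and no test between the libraries could be made. The values come from the IP library, and the input library on its own was not analysed here. Of 9 markers of basal and mesenchymal breast cancer 4 had a peak (FN1, EGFR, MSN and ZEB1), against 0 of 9 luminal epithelial markers, where 7.89% of all protein-coding genes of the RefSeq table had one. ZEB1 had only 17 tags, and at these numbers the counts do not tell cell types apart. Library depth is unknown here, since the list holds only peaks that passed the authors' threshold.

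CK2 is constitutively active and phosphorylates acidic serine and threonine sites in a very large number of proteins. It is a positive regulator of Wnt signalling, in which it binds Dishevelled and phosphorylates beta-catenin. CSNK2A1 encodes the alpha subunit and CSNK2A2 the alpha prime subunit, a paralog from a separate gene with a different C-terminal tail. CSNK2A3 is an intronless retrogene, a copy of CSNK2A1 made through its mRNA, and its coding sequence is nearly identical to that of the parent. The RefSeq table of GRCh38.p14 types all 3 as protein-coding and places CSNK2A3 on chromosome 11, CSNK2A2 on chromosome 16 and CSNK2A1 on chromosome 20. It lists CSNK2A1P as an older name of CSNK2A3, and CSNK2A1 itself as an older name of CSNK2A2, so the symbols were matched exactly as written.

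Each member carried a single peak, as did 68.5% of all genes in the list. On the retrogene copy CSNK2A3 (ENST00000528848) the peak ran from nt 116 to nt 991, a length of 876 nt, with its summit at nt 403. On CSNK2A2 (ENST00000563307) it ran from nt 53 to nt 903, a length of 851 nt, with its summit at nt 297. On the parent CSNK2A1 (ENST00000217244) it ran from nt 211 to nt 1507, a length of 1297 nt, with its summit at nt 541. The peaks of the copy and of the paralog were therefore close in length, 25 nt apart, and both were shorter than that of the parent. The copy's peak had 0.675 times the parent's length and the paralog's 0.656 times.

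All 3 peaks began early in their transcripts. A start within the first 250 nt was found in 518 of 2440 peaks (21.2%), and the median start over all 2440 was at nt 1089.5 (1 transcript per gene). The 2440 include every peak of genes with several, whose later peaks start further in, while each member had a single peak. Transcript lengths were not used either, so this share is not that of like genes. The summits lay in the upstream part of the peaks, at 32.9% of the peak length for CSNK2A3, 28.8% for CSNK2A2 and 25.5% for CSNK2A1. Over all 2440 peaks the summit stood at a median of 48.0%, with quartiles of 33.9 and 59.9%. The summits of all 3 members thus fell below the lower quartile of the list by this measure.

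**Figure D1:**
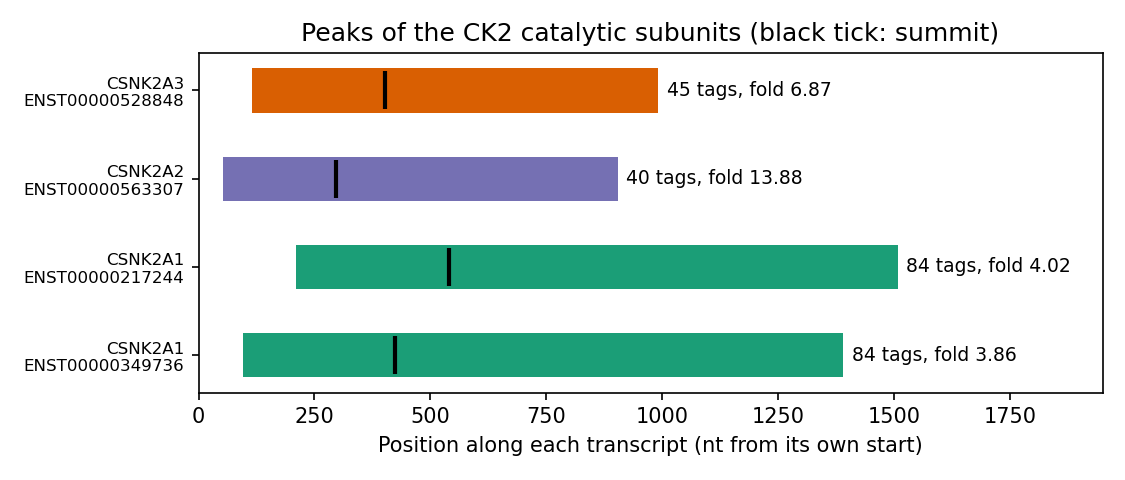
Position of each listed CK2 peak along its own transcript, in nt from that transcript's start (horizontal axis), with 1 bar per transcript and a black tick at the summit. All peaks begin within the first 250 nt; those of CSNK2A3 and CSNK2A2 end at nt 991 and 903, against nt 1507 and 1390 on the transcripts of CSNK2A1.

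How far the copy's peak was displaced from the parent's depended on the parent transcript used. Against ENST00000217244, the peak of CSNK2A3 began 95 nt nearer to the transcript start and ended 516 nt nearer to it. Against the other listed transcript of CSNK2A1, ENST00000349736, it began 21 nt further in, its summit lay 21 nt nearer to the start, and its end 399 nt nearer. On ENST00000349736 the peak of the parent covered nt 95 to 1390, and the start, summit and end differed by 116 to 117 nt between the parent's transcripts. The numbering of each transcript begins at its own first base. Transcript sequences were not used here, so equal positions in CSNK2A3 and CSNK2A1 cannot be read as equal bases. In both comparisons the difference between the ends of the peaks exceeded that between their starts.

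The region labels of the authors put the CSNK2A3 peak in coding sequence and the peaks of CSNK2A2 and CSNK2A1 in the 3' untranslated region. Of the 687 peaks with the latter label, 138 began within the first 250 nt of their transcript, as both of these did. The labels were not checked against the coding limits of these transcripts. A different label therefore does not show that the peaks of copy and parent lie in different regions of the mRNA. The labels were not used further.

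CSNK2A3 had 45 tags (95% Poisson interval 32.8 to 60.2) and CSNK2A2 had 40 (28.6 to 54.5), against 84 (67.0 to 104.0) for CSNK2A1. The intervals of the copy and the paralog overlapped each other and lay below that of the parent. The copy held 0.536 times the parent's tags (exact interval 0.364 to 0.778) and the paralog 0.476 times (0.318 to 0.702). These intervals cover counting error only, since the labels name no molecular identifiers and tags may not be independent molecules. The lengths behind the counts differ. Intervals of ratios also treat the tags of both genes as separate reads, which is not known for the copy and the parent. By tags CSNK2A3 shared rank 766 of 1658 with other genes at the same count, CSNK2A2 shared rank 835, and CSNK2A1 shared rank 420. The median gene had 41 tags, so that the copy and the paralog were near the middle of the list and the parent near its upper quartile of 85.

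Per length of peak the members lay closer together. CSNK2A3 had 51.4 tags per kb of peak (37.5 to 68.7) and CSNK2A2 had 47.0 (33.6 to 64.0), against 64.8 (51.7 to 80.2) for CSNK2A1. The density of the copy was 0.793 times that of the parent (0.540 to 1.15), and that of the paralog 0.726 times (0.485 to 1.07). The copy over the paralog gave 1.09 (0.698 to 1.72). All 3 intervals included 1, so no difference in density between the members was detectable at this depth. Differences up to the ends of those intervals remain possible. The intervals also take the peak lengths as fixed, although the lengths come from the same peak calling and have no error here. For the copy and the parent the interval holds only if their tags are separate reads, which is not known. By density CSNK2A3 ranked 237, CSNK2A2 291 and CSNK2A1 129 of 1658, all above the upper quartile of 40.6 tags per kb (median 29.8). Their neighbours in this order were FUBP3 (51.6 tags per kb) and ERBIN (51.2) for CSNK2A3, XPO1 (47.2) and SYNCRIP (47.0) for CSNK2A2, and CDK12 (64.8) and PRKAR1A (64.3) for CSNK2A1.

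The density was also high for peaks of that size. Of 94 other genes whose summed peak length was within 5% of that of CSNK2A3, 86 had fewer tags, and their median was 22 tags. For CSNK2A2 the corresponding count was 80 of 89 genes, with a median of 21 tags. For CSNK2A1 it was 79 of 85, with a median of 42.

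The fold enrichment that the authors' peak caller gave, a ratio per peak, placed the members in another order. It was 6.87 for CSNK2A3 and 13.88 for CSNK2A2, against 4.02 for CSNK2A1. The paralog, with the fewest tags, had the highest fold, and the parent, with the most tags, the lowest. The fold of the copy was 1.71 times and that of the paralog 3.45 times the fold of the parent. These are the authors' own values without an error, and the sources used here do not give the background behind them.

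By fold, 37.7% of the 1658 genes stood below CSNK2A3 and 84.3% below CSNK2A2. Below CSNK2A1 stood 2.83%, so the parent lay near the bottom of the list, whose median fold was 7.56. A fold of at least 4 was reached by all 3 members and by 97.2% of the genes. CSNK2A1 reached it on ENST00000217244 only, which was taken because its tags tied with those of ENST00000349736, where the fold was 3.86. A fold of at least 10 was reached by CSNK2A2 alone among the members and by 30.3% of the genes. The authors' score, whose column lost its name, was 55.05 for CSNK2A3 and 171.04 for CSNK2A2, against 41.19 for CSNK2A1. A score of at least 50 was therefore held by 2 of the 3 members, against 69.7% of the genes, and a score of at least 100 by CSNK2A2, against 39.4%.

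**Figure D2:**
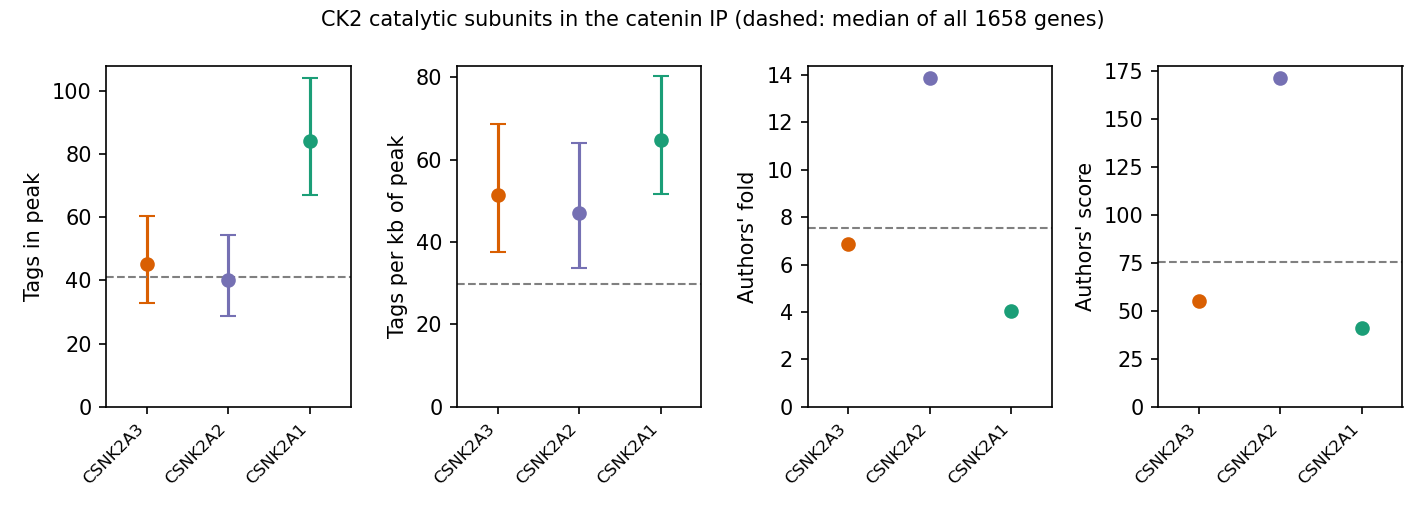
Tags, tags per kb of peak, the authors' fold and the authors' score (vertical axes, each starting at 0) for the 3 genes in the single IP library. Bars on the first 2 panels are 95% Poisson intervals (counting error only), the dashed lines are the medians over all 1658 genes; CSNK2A2 is highest in fold (13.88), and CSNK2A1 is highest in tags (84) and lowest in fold (4.02).

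Genes with similar numbers of tags give a scale for these folds. A gene with several peaks is given the fold of its highest peak and the tags of all of them. Each member had a single peak, so here and in the ranks by fold the members were compared partly with unlike genes. Of 111 other genes within 10% of the tags of CSNK2A3, 84 had a higher fold and 27 a lower one, and their median was 8.37. Of 115 such genes for CSNK2A2, 10 had a higher fold and 105 a lower one, with a median of 8.10. Of 104 such genes for CSNK2A1, 100 had a higher fold and 4 a lower one, with a median of 11. The paralog and the parent thus lay towards opposite edges of the cloud of genes in the plot of fold against tags, and the copy lay between them. Next to CSNK2A1 by tags stood YY1, with 85 tags and a fold of 13.27, and ECE1, with 84 tags and a fold of 3.96.

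Certain folds are held by 40 or more of the 6195 peaks, and the folds of the members were not among them. The share of all peaks with such a common fold was not computed. The absence of the members, and their distances from the common values, therefore say nothing particular about the CK2 genes. The fold of CSNK2A3, 6.87, was found in 8 peaks, and the nearest such common value was 6.95 (403 peaks). That of CSNK2A2, 13.88, was found in 1 peak, next to 13.89 (59 peaks). That of CSNK2A1, 4.02, was found in 5 peaks, next to 4.05 (79 peaks). Among the members, the fold of CSNK2A2 was within 0.01 of such a value and those of CSNK2A3 and CSNK2A1 were 0.08 and 0.03 away.

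**Figure D3:**
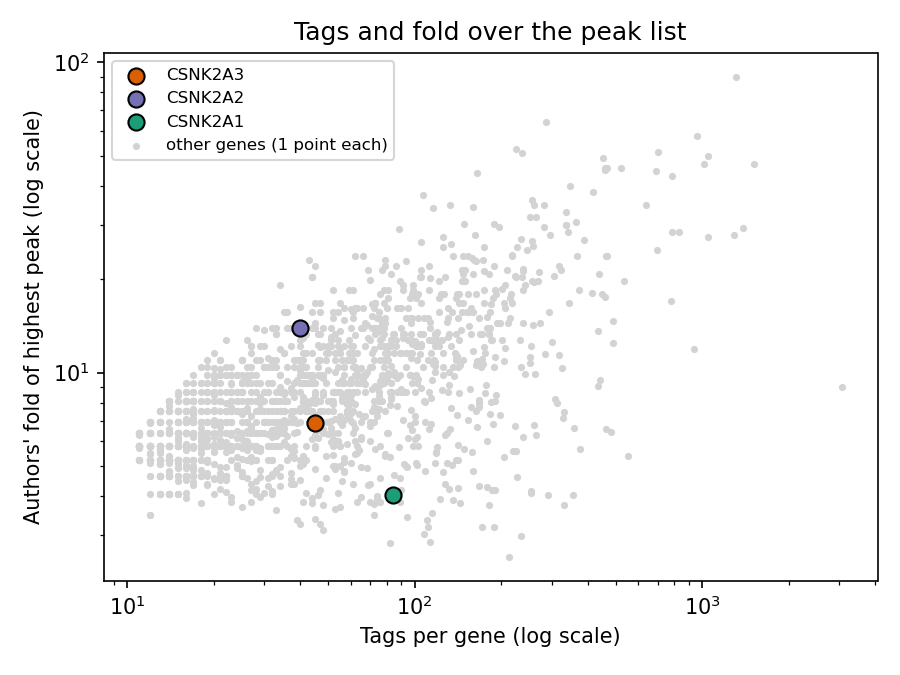
Authors' fold of the highest peak (vertical axis) against summed tags (horizontal axis), both on log scales, with 1 grey point per gene and the 3 CK2 genes in colour. CSNK2A3 (45 tags, fold 6.87) lies inside the cloud, CSNK2A2 (40 tags, fold 13.88) near its upper edge and CSNK2A1 (84 tags, fold 4.02) near its lower edge, each at its number of tags.

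A parent gene and a near-identical copy can receive the same reads, and the sources used here do not give how the authors assigned reads that match several transcripts. The tags of CSNK2A3 and of CSNK2A1 are therefore uncertain as measures of each separate RNA. The entries of CSNK2A3 and CSNK2A1 were not identical, since length, tags, fold and score all differed. That does not show that their reads are separate. The entries of the CSNK2A1 transcripts, with 84 tags each, also differed in length, fold and score. Of 34 pairs of symbols with a peak of at least 20 tags that agreed in both length and tags, 0 included a CK2 gene. Such pairs held 65 of the 1658 symbols (3.92%), so this count says nothing particular about the CK2 genes. The pairs with the most tags were AKAP2 with PALM2-AKAP2 (229 tags each, fold 21.53 in both), ZBED6 with ZC3H11A (205 tags, 29.82 in both) and ANKHD1 with ANKHD1-EIF4EBP3 (119 tags, 9.44 in both), whose transcripts overlap in the genome. NUP58 with OGDH (49 tags) and AHNAK with JAG1 (45 tags) followed, with folds that differed within each pair.

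The transcripts of CSNK2A1 differed little from each other. Both had 84 tags, with peaks of 1297 and 1296 nt, and their folds were 4.02 on ENST00000217244 and 3.86 on ENST00000349736. Of the 1064 genes listed on several transcripts, 381 (35.8%) had equal tags on all of them. CSNK1A1, which encodes casein kinase 1 alpha, a kinase that primes beta-catenin for degradation, had 95 tags on one listed transcript and 18 on the other.

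The authors' annotation joined the same 8 KEGG pathways to each of the 3 genes, among them Wnt signaling, adherens junction, tight junction, NF-kappa B signaling and ribosome biogenesis. In the Wnt pathway 24 genes had a peak, with a median density of 32.4 tags per kb. By density CSNK2A3 ranked 5, CSNK2A2 6 and CSNK2A1 2 of these 24, and by fold they ranked 15, 3 and 24 in the same order. In the adherens junction pathway, with 27 genes and a median of 31.4 tags per kb, the ranks by density were 5 for CSNK2A3, 7 for CSNK2A2 and 4 for CSNK2A1. By fold they were 17, 4 and 27 in that order, so CSNK2A1 had the lowest fold of both pathways. The 3 genes also shared all 7 molecular function terms, kinase activity among them, and 13 biological process terms. They shared 0 cellular component terms, as CSNK2A2 had a single such entry where CSNK2A3 had 18 and CSNK2A1 had 30.

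The 3 genes also formed 1 of 35 KEGG orthology groups with several symbols in the list. The highest density over the lowest was 1.38 in the CK2 group, which was also the median over the 35 groups. The highest fold over the lowest was 3.45, the widest of the 35 groups, against a median of 1.48. This ratio can only grow with the number of members, and 33 of the 35 groups have 2 symbols, so the CK2 group with 3 is not compared with its like. The next were MYH9 with MYH10, the nonmuscle myosin heavy chains (3.36), and SMURF1 with SMURF2, ubiquitin ligases of the TGF-beta pathway (3.17). RANBP2 with its copies RGPD5 and RGPD8 was the other group of 3, at 1.22 for fold and 1.13 for density.

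Of the 20056 protein-coding symbols in the RefSeq table, 1582 (7.89%) were in the peak list, whatever their expression in this line. Against that share, which is no measure of the genes expressed here, 2 of 15 further genes of the CK2 complex and its regulators (13.3%) had a peak. SUPT16H, a subunit of the histone chaperone FACT that associates with CK2, had 489 tags, a density of 128.9 tags per kb and a fold of 14.69. NOLC1, a nucleolar phosphoprotein that binds CK2, had 358 tags, a density of 128.4 tags per kb and a fold of 6.64. Both densities were higher than those of the catalytic subunits, outside their counting intervals. CSNK2B, which encodes the regulatory beta subunit, was not listed, nor was SSRP1, the partner of SUPT16H in FACT; absence means only that no peak was given.

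Of 57 genes for CK2 substrates, 15 (26.3%) had a peak, against 7.89% of all protein-coding genes, a share that takes no account of expression. The median density of the 15 was 45.5 tags per kb, with a median fold of 9.11. The 6 with the most tags were CTNNB1 (beta-catenin), MYH9, MAP1B, NCL (nucleolin), TOP2A and TOP1, the last 2 being DNA topoisomerases. Their densities ran from 77.0 tags per kb for TOP2A to 1087 for CTNNB1, all above that of CSNK2A1. CTNNB1 held the most tags (3078) and the highest density of all 1658 genes. If B-catenin in the sample title stands for beta-catenin, CTNNB1 encodes the target of the IP itself and is no ordinary member of this list. CTNNA1, the alpha-catenin gene, was close to CSNK2A1 in fold, at 4.29 with 179 tags. At the lower end MDC1, a DNA damage mediator, had 19 tags and RRN3, an initiation factor of RNA polymerase I, had 22.

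Casein kinase 1 is a separate kinase family, despite the similar name. Of 8 other kinases with casein in their name, 3 had a peak, all of the casein kinase 1 family (37.5%). These 8 genes are too few to set against the 7.89% of all protein-coding genes, which takes no account of expression. CSNK1A1 had a density of 58.7 tags per kb and a fold of 6.15, within the range of the CK2 genes in both. CSNK1G1 and CSNK1G3, genes for gamma isoforms, had lower densities of 27.3 and 23.0 tags per kb, with 30 and 18 tags.

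CK2 belongs to the CMGC group of kinases, which also holds the cyclin-dependent, MAP and GSK3 kinases. Of 61 other genes of the group 13 had a peak (21.3%), against 7.89% of all protein-coding genes, again without regard to expression. The 13 had a median density of 26.1 tags per kb and a median fold of 9.26. CDK12, the kinase of the RNA polymerase II tail, had a density of 64.8 tags per kb, equal to that of CSNK2A1 when rounded. Its fold was 31.84, in the higher of its 2 peaks. PRPF4B, a spliceosomal kinase, had 62.2 tags per kb at a fold of 26.05, and SRPK1, which phosphorylates splicing factors, had 50.2 at 9.37. HIPK1, CDK6 and HIPK2 completed the 6 with the most tags, at 24.8 to 36.9 tags per kb. GSK3B, a kinase of the complex that degrades beta-catenin, had 12 tags, the fewest of the group, and a fold of 6.37. MAPK6 had a fold of 4.09, the lowest of the 13 and close to that of CSNK2A1. CDK11B, which the list names only as CDK11, was left out of these counts and medians; it also had a peak, with 24 tags, 26.9 tags per kb and a fold of 8.10. For comparison, all genes in the list had a median density of 29.8 tags per kb.

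**Figure D4:**
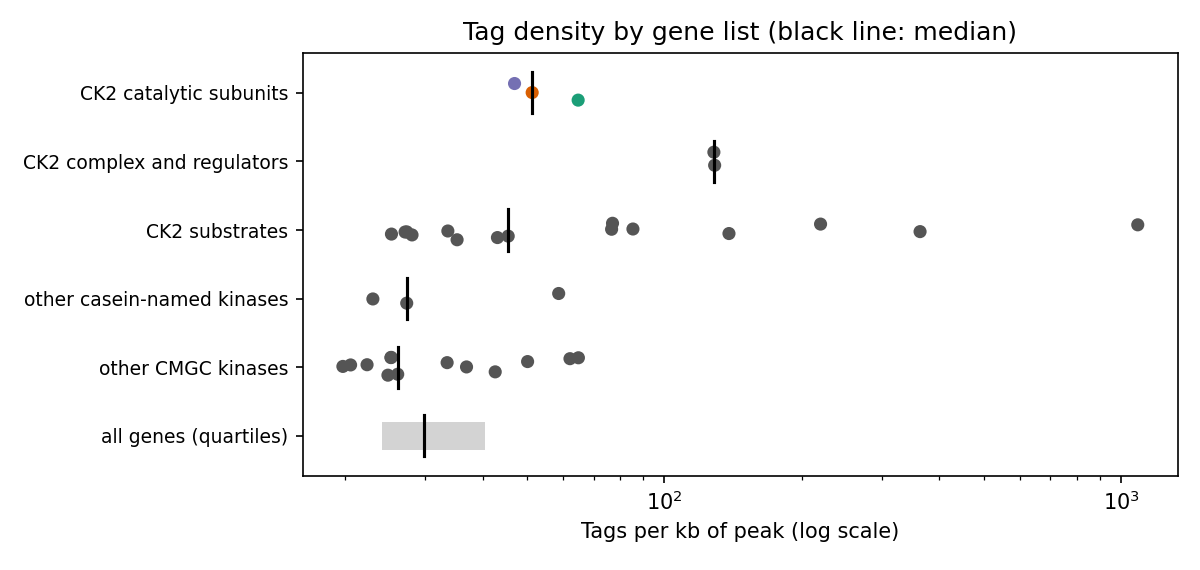
Tags per kb of peak (horizontal axis, log scale) for each gene with a peak in the CK2 catalytic subunits and the 4 gene lists, with 1 point per gene, a black line at each median and the quartiles of all 1658 genes as a grey bar. The catalytic subunits lie between 47.0 and 64.8 tags per kb, to the right of the grey bar, which ends at 40.6.

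By the RefSeq table, CSNK2A3 lies within the span of GALNT18, a glycosyltransferase gene that was not listed. Of the protein-coding genes on either side of each member, USP47 beside CSNK2A3 had a peak, while ZBED5 beside CSNK2A3, CFAP20 and CFAP263 beside CSNK2A2, and TBC1D20 and TCF15 beside CSNK2A1 were not listed. This is 1 of 6 such neighbours, a number too small to set against the 7.89% of all protein-coding genes. The promoter windows of RefSeq (250 bases before to 50 after the gene start, GRCh38.p14) differed in base composition. That of the retrogene CSNK2A3 had 47.3% G+C and 6 CpG dinucleotides, and that of CSNK2A2 had 78.3% and 39, against 55.3% and 15 for the parent. Over 27305 such windows the medians were 58.3% and 14.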

How the data were processed

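RNA of the catenin IP was sheared to about 300 to 500 bp, per the labels' protocols. The authors deposited a list of peaks along Ensembl transcripts. The tag count of a peak is a whole number as deposited. The fold is the deposited fold enrichment of each peak, and the sources used here do not give its background. The score is a deposited column that lost its header. The submitters' processing notes name hg18; the sources used here give no aligner, peak caller, annotation or strand use, so RefSeq (GRCh38.p14) served for names, chromosomes, neighbours and promoter windows only.

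Positions count from 1 along the transcript. The summit, deposited relative to the peak start, was added to it. A gene's tags and length were summed over the peaks of its transcript with the most tags (ties to the lowest ID), and the fold of the highest peak was taken. Intervals for counts are exact Poisson at 95%; those for ratios come from the exact binomial interval of the share. Their computation was checked on simulated independent Poisson counts (Python 3.11.15, scipy 1.17.1). That simulation held no duplicate reads and no reads shared between genes, so it does not show that the intervals suit these data. With 1 library per group there was no test between samples. Named genes were the members, list genes with a peak (up to 6 by tags in long lists), neighbours in rank and the 5 leading pairs of equal peaks. CTNNA1, MDC1, RRN3, GSK3B, MAPK6, the orthology groups and the genes beside each member in the genome were named after their values were seen. CDK11 in the kinase list was not matched to CDK11B, which had a peak and is left out of the list's counts and medians. The members and the lists were chosen with earlier results of these data known. The alternatives were another transcript per gene, fold and score minimums, and other definitions of equal peaks.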

Additional observations from a re-analysis of the deposited data

How the results depend on the processing

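No paired analysis was possible because there was only 1 library in either group. The alternatives say little about the stability of the members' values: CSNK2A3 and CSNK2A2 have 1 listed transcript each, both transcripts of CSNK2A1 have 84 tags, and a fold or score minimum can only drop a gene. On the other listed transcript CSNK2A1 had 64.8 tags per kb, as on the first, and a fold of 3.86, below the minimum of 4. A score of at least 50 removed CSNK2A1 (score 41.19), and a score of at least 100 also removed CSNK2A3, so no ratio to the parent could be formed there. The start of the CSNK2A3 peak minus that of CSNK2A1 was -95 nt, and 21 nt against the other listed transcript of CSNK2A1, an alternative chosen after seeing the data. Pairs of genes with peaks within 10 nt in length and 10% in tags numbered 10505, with 5 that included a CK2 gene and 0 that joined CK2 genes to each other; they fell to 3358 at 20 tags or more, to 171 with exact agreement and to 34 with both, the last chosen after seeing the data, since these definitions admit fewer peaks. Of the 33 list genes with a peak, 27 had one with a score of at least 50, and 33 one with a fold of at least 4. The counts of 40 to 84 tags limit the precision. The interval of the copy over the parent in density was 0.540 to 1.15. It shows how wide that limit is, if the tags of both genes are separate reads and the peak lengths are fixed.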
